A study of Mus musculus with 4 samples.

Results

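Proteins that bind or edit double-stranded RNA recognise the shape of an RNA duplex more than its letters. Many of them carry double-stranded RNA-binding domains or zinc fingers, and the ADAR enzymes turn adenosine into inosine within the duplex. In nerve cells such proteins recode neurotransmitter receptors, carry messengers along neurites and keep duplexes made by the cell from being taken for a virus. The 9 genes described here are the editing enzymes Adar and Adarb1, the transport and decay factors Stau1 and Stau2, the helicase Dhx9, the related RNA-binding proteins Ilf2 and Zfr, the zinc finger protein Zfp346 and the kinase activator Prkra. They were selected by name for what their proteins do, with the knockdown and control signals of these same arrays already known. Their differences are therefore given as a description and carry no test of their own. The array annotation held 9 of 18193 genes under these names, as 27 probe sets with 1 gene symbol each.

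The arrays measured cytoplasmic RNA of Neuro2A, an established mouse neuroblastoma line. In the knockdown group, 2 cultures were depleted of 4.5SH, a short rodent RNA related to the B1 repeat, and 2 cultures served as controls. Transfections used antisense oligonucleotides at 30 nM, with lipofectamine, and the labels do not say which oligonucleotide, if any, the control cells got. No nuclear fraction was analysed here, so less RNA in the cell and less of it in the cytoplasm cannot be told apart. The labels name the replicates biological without saying whether the cultures were separate transfections, so the p-values cover only the spread between these cultures, which may be technical.

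Zfp346, Dhx9 and Adar are the members whose every tested probe set passed the threshold in 1 direction, so stretches of DNA at their gene starts are shown first. The Adar probe set 1439276_at was tested only because its knockdown arrays were high, so its direction was fixed in advance. The annotation of RefSeq on mouse build GRCm38.p6 gave promoter windows for 8 of the 9 members, each from 250 bases before to 50 bases after a transcript start. Of the pair that was lower in the knockdown, the stretches upstream of the gene are printed 5′ to 3′ with every GC box in capitals. A GC box is the sequence GGGCGG on either strand, bound by Sp1-type factors. The Zfp346 stretch lies at chr13:55105059-55105270 on the plus strand and the Dhx9 stretch at chr1:153487689-153487910 on the minus strand.
Zfp346: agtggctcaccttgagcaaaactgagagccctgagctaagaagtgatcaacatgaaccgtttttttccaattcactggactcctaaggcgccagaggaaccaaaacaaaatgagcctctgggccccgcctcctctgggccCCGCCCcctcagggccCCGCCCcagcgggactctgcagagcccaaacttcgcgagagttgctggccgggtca
Dhx9: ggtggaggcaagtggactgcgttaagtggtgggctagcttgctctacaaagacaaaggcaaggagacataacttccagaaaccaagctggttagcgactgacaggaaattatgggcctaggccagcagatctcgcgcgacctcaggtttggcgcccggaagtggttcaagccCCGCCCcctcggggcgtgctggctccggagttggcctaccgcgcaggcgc

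The Zfp346 stretch holds 2 GC boxes and the Dhx9 stretch 1, while the full 300-base windows they come from hold 3 and 2. Of all 32851 such windows in the same annotation, 35.7% hold at least 1, and so do 8 of the 12 member windows. These belong to 6 members, Adar, Adarb1, Stau1, Dhx9, Zfp346 and Prkra. The windows of Ilf2 and Zfr hold none. Windows of the same gene can overlap, as those of Zfp346 do.

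For Adar, which was higher in the knockdown, 3 windows are annotated. The gene is known for a long isoform made from a promoter that interferon switches on. The window at chr3:89730468-89730767 holds 2 copies of GAAANNGAA, the core letters of an interferon response element, a pattern picked after the sequence had been read. The copy 33 bases after the start is printed in capitals, from chr3:89730736-89730765 on the plus strand.
Adar: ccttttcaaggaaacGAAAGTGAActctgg

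The pattern, searched on both strands, was found in 8.56% of all windows and in no window of another member. It is a match of letters, not a measured binding site, and the arrays do not say which Adar isoform a probe set reads.

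Of the 27 member probe sets, 20 had a mean signal over the 4 arrays at or above the median of all probe sets, 16.9, and were tested. Each of the 9 genes kept at least 1. All values below are MAS5 signals on the deposited linear scale, and differences are knockdown minus control on log2(signal + 16), a scale that understates changes of dim probe sets. Values after ± are standard errors of a limma fit over all 22525 tested probe sets, and a probe set passed when its adjusted p in that fit was below 0.05.

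Among the 20 tested probe sets 5 passed as lower, from Zfp346, Dhx9 and Stau2, and 3 passed as higher, all from Adar. The other 12 did not pass. Of the 3 higher, 1439276_at was tested only because its knockdown arrays were high, so its direction was fixed in advance. Over all tested probe sets 25.8% passed as lower and 9.76% as higher, so a call in either direction was common on these arrays. The knockdown and control arrays did not overlap in 13 of the 20, against 66.9% of all tested probe sets. The members' median difference was -0.14 and that of all tested probe sets -0.11. The balance of directions over all probe sets moved with the scale of the arrays: 5811 passed as lower and 2199 as higher on the deposited scale, or 25.8% and 9.76%. Quantile scaling gave 16.7% and 16.9%, centring each array on its tested probe sets gave 17.7% and 16.8%, and scaling to the spike-in controls gave 35.6% and 4.63%. If knockdown replicate 2 was left out, 1200 passed as higher. The median of all tested probe sets was 0.00 with quantile scaling and -0.25 with spike-in scaling.

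**Figure D1:**
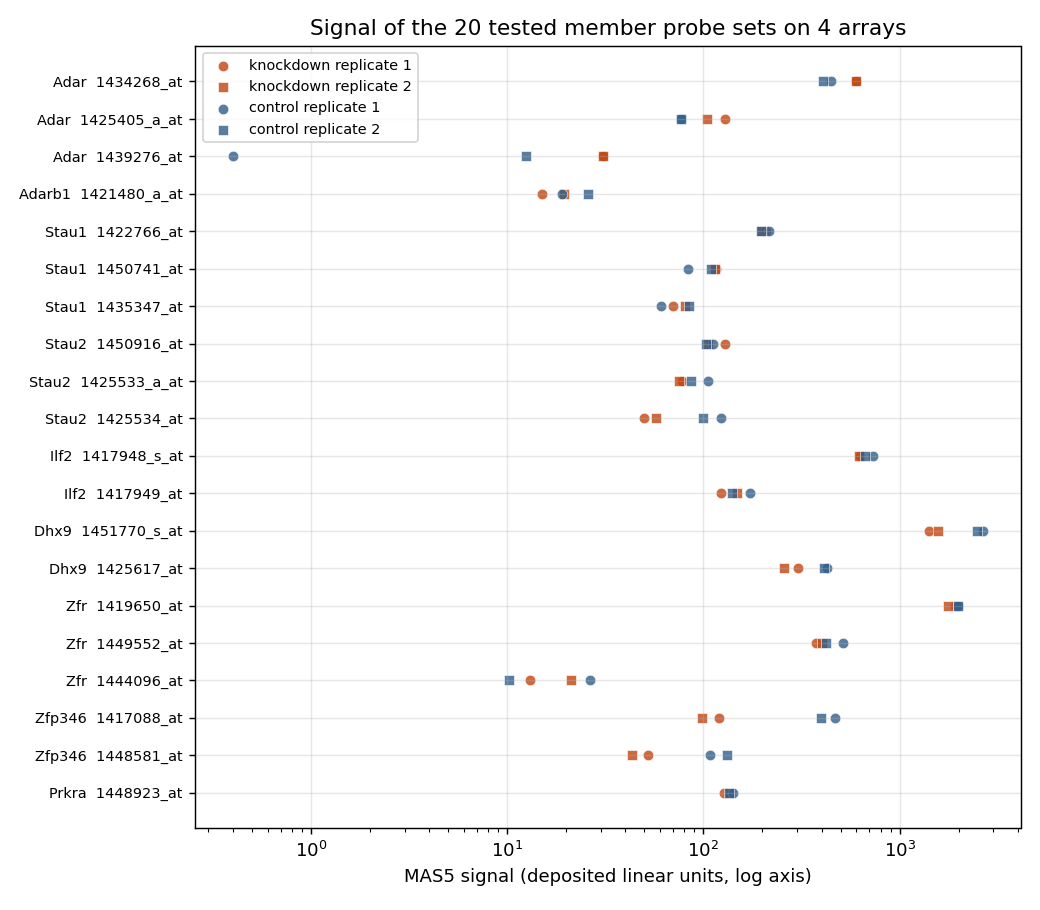
MAS5 signal (deposited linear units, log axis) of each of the 20 tested member probe sets, 1 row per probe set, with knockdown arrays in orange and control arrays in blue, circles for replicate 1 and squares for replicate 2. The knockdown points of Zfp346 and Dhx9 lie to the left of the control points, those of Adar to the right, and those of Stau1 and Prkra lie close to the control points.

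Facts of the whole series that touch these values are few. The 2% trimmed mean signal was 128 and 132 on the knockdown arrays and 149 and 143 on the control arrays, and the Actb control probe set at the 3′ end over that at the 5′ end gave 2.47 and 2.49 against 2.60 and 2.78. Of 10 neuroblastoma and neuronal markers 8 were on the arrays under 1 symbol and 5 were tested, among them Phox2a, Hand2 and Stmn2, while the brightest probe sets of Gata3, Nefl and Dcx stayed below the filter. Their summed signal was 6758 and 6836 in the knockdown against 7531 and 7586 in the control. The 4 measured glial markers summed to 79 to 103 over the 4 arrays, with Sox10 higher in the knockdown at 28.8 and 25.4 against 9.7 and 9.2, and the 5 fibroblast markers to 69 to 95. The 5 leukocyte markers summed to 417 to 425 against 739 to 831, carried by Cd68, with Ptprc at 8.1 or less and Aif1 at 12.5 or less on all arrays. The 4 nuclear RNAs Malat1, Neat1, Xist and Meg3 summed to 274 to 285 in the knockdown and 485 to 498 in the control. At the brightest probe set Malat1 was lower and Xist higher. For Xist the control arrays, at 15.3 and 12.5, also lay below the filter, so its direction was fixed in advance too. The part of these differences in the results below was not tested. Actb, a control gene, differed by 0.07 ± 0.05 and did not pass.

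Of the editing enzymes, Adar was higher at all 3 tested probe sets and Adarb1 passed in neither direction, and whether their differences differ was not tested. Adar encodes ADAR1, which edits duplexes throughout the body and whose long form is made after interferon. Its probe set 1434268_at read 598.0 and 599.9 on the knockdown arrays and 446.2 and 405.7 on the control arrays. Both knockdown arrays were above both control arrays, the mean ratio was 1.41, and the difference was 0.48 ± 0.09. The probe set 1425405_a_at read 128.2 and 104.0 against 77.2 and 76.7, again without overlap, with a difference of 0.50 ± 0.15. It did not pass with spike-in scaling (0.36), without the filter on dim probe sets, or without knockdown replicate 1 (0.37). The third, 1439276_at, read 30.9 and 30.8 against 0.4 and 12.5 and differed by 1.12 ± 0.29. Its control mean of 6.45 lies below the filter, so it was tested only because the knockdown arrays were higher, and it had to differ in that direction to be tested. Its difference was 0.72 and no longer passed without control replicate 1, nor did it pass without the filter, and it was 2.87 with a pseudocount of 1 and 0.43 with a pseudocount of 64. The differences at 1434268_at and 1425405_a_at were positive on every scale tried, and 6.65% and 5.93% of all tested probe sets had a higher one. For 1439276_at the sign was fixed by the filter and the size moved with the pseudocount, so its sign and rank add nothing to these.

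Adarb1 encodes ADAR2, the enzyme that recodes glutamate receptor messengers in neurons. Its only tested probe set, 1421480_a_at, was dim at 15.1 and 19.5 in the knockdown against 19.1 and 25.8 in the control. The groups overlapped, and the difference of -0.21 ± 0.24 had a 95% interval from -0.73 to 0.32. The other Adarb1 probe sets were below the filter, at 18.4 and 14.7 against 17.5 and 7.3 for 1434932_at and at 1.1 to 1.6 on all arrays for 1443968_at. The interval of 1421480_a_at overlaps the one of Adar's brightest probe set, from 0.29 to 0.66. It leaves room for a change in either direction that signals this dim could not show.

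The Staufen proteins carry messengers on microtubules and direct bound messengers to decay. Stau1, the form found in most tissues, had 3 tested probe sets, and none passed. The brightest, 1422766_at, read 207.5 and 198.7 on the knockdown arrays and 216.5 and 196.7 on the control arrays, a difference of -0.02 ± 0.11 with an interval from -0.26 to 0.22. The next, 1450741_at, read 116.6 and 114.0 against 83.3 and 108.9, which put the knockdown arrays above the control arrays, but the difference of 0.24 ± 0.15 did not pass, and its interval ran from -0.08 to 0.55. The dimmest, 1435347_at, was at 0.05 ± 0.17 with overlapping groups. The intervals of the 3 Stau1 probe sets together ran from -0.32 to 0.55. In the annotation 1422766_at and 1450741_at rest on the same source sequence, so they are not independent readings.

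Stau2, the form enriched in neurons and their dendrites, gave different readings by probe set. At 1425534_at the signal was 49.7 and 57.0 on the knockdown arrays and 122.3 and 99.7 on the control arrays. That is 0.481 of the control mean, a difference of -0.87 ± 0.16 that passed as lower under every alternative that measured it and was -0.57 with a pseudocount of 64. At 1425533_a_at the signal was 77.6 and 75.3 against 105.1 and 86.7, also without overlap, but the difference of -0.27 ± 0.15 did not pass on the deposited scale and passed with spike-in scaling (-0.41). At 1450916_at it was 129.4 and 106.1 against 112.0 and 103.5, with overlapping groups and a difference of 0.11 ± 0.14. The Stau2 gene as a whole therefore has no single direction here, and whether its probe sets differ from each other was not tested. These readings at 1425534_at and 1425533_a_at come from the same source sequence in the annotation. No promoter window was matched for Stau2.

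**Figure D2:**
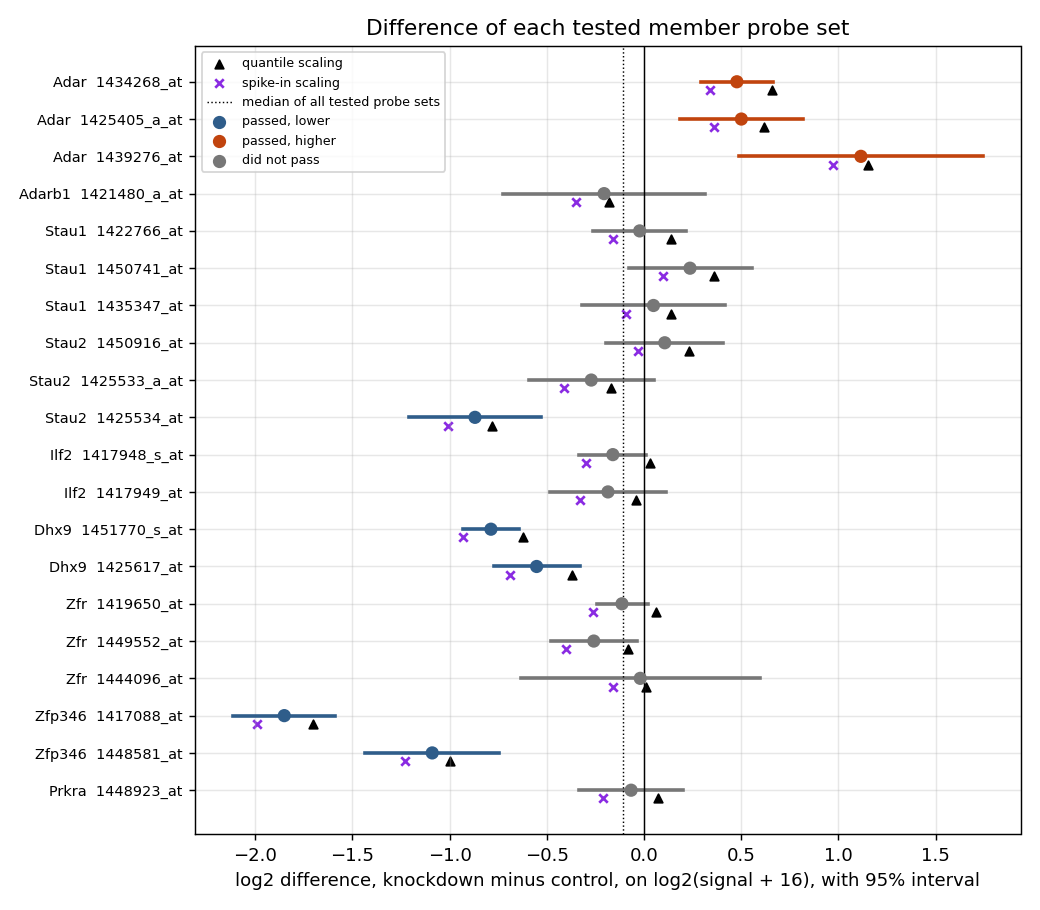
Log2 difference, knockdown minus control, on log2(signal + 16) for the 20 tested member probe sets (filled circles, with 95% limma intervals from 2 against 2 arrays), blue where it passed as lower, orange where it passed as higher and grey otherwise, with the value under quantile scaling (triangles) and spike-in scaling (crosses) below each. Zfp346, Dhx9 and Adar keep their side of 0 on all 3 scales, whereas grey points such as Ilf2 1417948_s_at (-0.16, 0.03 and -0.30) do not.

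Dhx9, an RNA helicase that unwinds duplexes formed by inverted repeats and works with ADAR1 on them, was lower at both tested probe sets. The bright 1451770_s_at read 1408.0 and 1565.8 on the knockdown arrays and 2661.9 and 2488.4 on the control arrays. The knockdown mean was 0.577 of the control mean, and the difference was -0.79 ± 0.07. At 1425617_at the signal was 304.5 and 257.0 against 425.3 and 410.1, a difference of -0.55 ± 0.10. Neither probe set's groups overlapped, and both differences passed as lower in every alternative. They were -0.62 and -0.37 with quantile scaling. The third Dhx9 probe set, 1425618_at, was at 7.1 or less on all 4 arrays and was not tested. In the annotation used here all 3 rest on the same source sequence, so they are not independent readings of the messenger.

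Ilf2 encodes NF45, which works in complexes with double-stranded RNA-binding proteins, and Zfr encodes a zinc finger protein that pairs with NF45. No tested probe set of either gene passed on the deposited scale. Ilf2 read 627.8 and 624.7 against 735.2 and 669.0 at 1417948_s_at, a difference of -0.16 ± 0.08, and 122.7 and 147.8 against 171.9 and 140.3 at 1417949_at, a difference of -0.19 ± 0.14. The first pair of groups did not overlap and the second did. Both values were near the median of all tested probe sets, and with quantile scaling they were 0.03 and -0.04. With spike-in scaling the first was -0.30 and passed as lower. Both Ilf2 probe sets rest on the same source sequence in the annotation, so they are not independent readings.

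Zfr had 6 probe sets, of which 3 were tested. The brightest, 1419650_at, read 1912.2 and 1762.8 on the knockdown arrays and 1985.5 and 1987.4 on the control arrays, a difference of -0.11 ± 0.06 without overlap. It was 0.06 with quantile scaling and -0.26, passing as lower, with spike-in scaling. At 1449552_at the signal was 376.9 and 401.1 against 517.4 and 423.6, and the difference was -0.26 ± 0.10. That value did not pass on the deposited scale and did pass as lower with spike-in scaling (-0.40), on the brightest 25% of probe sets, with the replicate number as a block, and without control replicate 2 (-0.40), while quantile scaling gave -0.08. The dim 1444096_at had overlapping groups and a difference of -0.02 ± 0.28. The 3 untested Zfr probe sets lay between 0.4 and 18 on all arrays. In the annotation 1419650_at and 1449552_at rest on the same source sequence, so they are not independent readings.

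Zfp346, also called JAZ, is a zinc finger protein that binds double-stranded RNA and RNA-DNA hybrids rather than single strands. On log2(signal + 16) it showed the largest difference among the members, whereas with a pseudocount of 1 the dim Adar probe set 1439276_at differed more, by 2.87 against -1.99. At 1417088_at the signal was 119.5 and 98.0 on the knockdown arrays and 467.3 and 399.6 on the control arrays. Each knockdown array was below each control array, and the knockdown mean was 0.251 of the control mean. The difference was -1.85 ± 0.12, with an interval from -2.11 to -1.59, and 0.0977% of all tested probe sets had a lower one. At 1448581_at the signal was 52.5 and 43.3 against 107.9 and 132.4, or 0.399 of the control mean, and the difference was -1.09 ± 0.16. The second value was -0.72 with a pseudocount of 64, and both passed as lower in every alternative that measured them. The pair rests on the same source sequence in the annotation, so it too is not a set of independent readings.

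The tested genes whose profile over the 4 arrays was nearest to that of 1417088_at were Marchf7, Tnfrsf25 and Nfx1. Nearness was the Euclidean distance between log2 values centred on each probe set's mean, and it was 0.124, 0.140 and 0.157. Their differences were -1.95 ± 0.13, -1.72 ± 0.22 and -1.86 ± 0.12. With 4 arrays in 2 groups this measure finds little more than a knockdown difference of like size.

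Prkra encodes PACT, which activates the double-stranded RNA-dependent kinase PKR and also binds Dicer. Its probe set 1448923_at read 127.0 and 136.2 on the knockdown arrays and 142.0 and 135.0 on the control arrays. The groups overlapped, and the difference of -0.07 ± 0.12 had an interval from -0.33 to 0.20. The other, 1447737_at, was at 7.3 or less on all arrays and was not tested. That interval leaves room for a change in either direction.

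**Figure D3:**
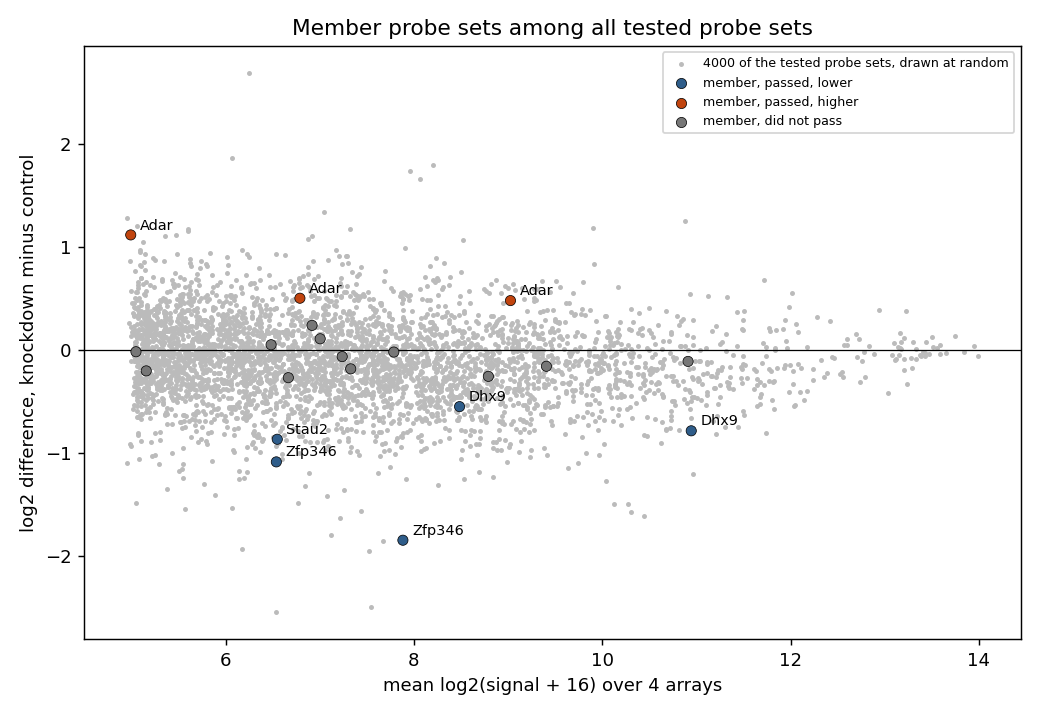
Log2 difference, knockdown minus control, against mean log2(signal + 16) over the 4 arrays for the 20 tested member probe sets (large points, coloured by call) and for 4000 of the 22525 tested probe sets (grey). Zfp346 at -1.85 lies at the lower edge of the grey points, and the Dhx9 point at -0.79 lies among bright probe sets.

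Other genes tied to double-stranded RNA came from 5 lists, which include decay factors and messengers that ADAR enzymes edit. They were 73 genes in all, with no member among them. The arrays held 65 of them under 1 symbol, and 49 were tested, each by its brightest tested probe set. Of these, 20 fell, 9 rose and 20 did not pass. Over all 11814 tested genes 32.9% passed as lower and 8.95% as higher by the same rule. The median of the 49 was -0.15 and that of all tested genes -0.17. The adjusted p-values that follow come from the limma fit over all tested probe sets. Without the intensity trend in that fit, the calls described below for Tarbp2, Drosha, Ago2, Upf2, Blcap, Nova1 and Azin1 were lost.

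The list of double-stranded RNA-binding domain and zinc finger proteins, which also holds other proteins acting on duplexes, had 11 tested genes. Of these, 6 fell, 2 rose and 3 did not pass, and the median was -0.26. The nuclease Snd1, which cuts edited duplexes, fell from 633.7 and 560.1 to 360.1 and 304.8, by 0.82 ± 0.10 on the log2 scale (adjusted p = 3.63e-05). Dhx30, a mitochondrial relative of Dhx9, fell by 0.74 ± 0.08 (adjusted p = 9.15e-06) with all 3 of its tested probe sets lower. Prkrip1 fell by 0.63 ± 0.12, but the mean of its probe sets was -0.30 and did not pass. The rises were those of Cdkn2aip (0.62 ± 0.10), a regulator of the p53 pathway, and Nkrf (0.46 ± 0.11), a repressor of NF-kappaB target genes. Nkrf did not pass with spike-in scaling (0.32), without knockdown replicate 1 (0.39) or as the mean of its probe sets (0.29). Son, singled out after its values were seen, was lower by 0.42 at its brightest probe set while 4 of its 7 tested probe sets were higher.

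Of 10 small RNA processing genes 3 fell, 2 rose and 5 did not pass, with a median of -0.10. Xpo5, which exports microRNA precursors, fell from 851.4 and 862.9 to 524.2 and 534.9, by 0.68 ± 0.08 (adjusted p = 1.55e-05). Tarbp2, the Dicer partner most like Prkra, fell by 0.43 ± 0.11 (adjusted p = 0.00550), but was at -0.25 and did not pass with quantile scaling, and its probe sets averaged -0.27, which did not pass either. It also did not pass without knockdown replicate 2 or without control replicate 1. Drosha fell by 0.30 ± 0.06 and was at -0.13 with quantile scaling. The helicase Ddx17 rose by 0.45 ± 0.08. Ago2 rose by 0.26 ± 0.08, but was at 0.12 and did not pass with spike-in scaling, and leaving out either knockdown array or control replicate 2 also ended its call.

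Of the 8 tested sensors of double-stranded RNA 1 rose, 2 fell and 5 did not pass, and their median of 0.18 lay above that of all tested genes. Oasl2, a relative of the 2′-5′ oligoadenylate synthases, rose by 1.08 ± 0.20 (adjusted p = 0.000936), and by 0.60 with a pseudocount of 64. Dhx58, which encodes the RNA sensor LGP2, fell by 0.97 ± 0.14 (adjusted p = 0.000137) at its brightest probe set, with 1 of 3 tested probe sets lower and a mean of -0.50. Oas1b fell by 0.55 ± 0.14, a call lost without knockdown replicate 1 or without control replicate 1. The kinase PKR, encoded by Eif2ak2 and activated by the Prkra protein, read 113.9 and 81.3 against 72.8 and 83.9 and was at 0.26 ± 0.17. Ddx58, the RIG-I gene, was at 0.15 ± 0.09 and Mavs, its adaptor, at 0.01 ± 0.15, and Ifih1, Tlr3 and Zbp1 were not tested. The sensors that passed the test did so in both directions.

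Staufen-bound messengers are degraded by factors shared with nonsense-mediated decay. Of 8 tested genes of that machinery 5 fell, 2 rose and 1 did not pass, and the median was -0.38. The helicase Upf1, which Staufen proteins recruit, fell from 191.2 and 177.0 to 110.3 and 115.6, by 0.63 ± 0.12 (adjusted p = 0.00111). The nuclease Smg6 fell by 0.57 ± 0.12. The kinase Smg1 fell by 0.50 ± 0.13, but did not pass with quantile scaling (-0.36) or without knockdown replicate 2 (-0.37), and the mean of its probe sets, -0.21, did not pass either. Pnrc2, a decapping adaptor, rose by 0.48 ± 0.08 (adjusted p = 0.000391) and Upf2 by 0.37 ± 0.08, which did not pass with spike-in scaling (0.23).

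Messengers whose protein sequence ADAR enzymes are known to alter were read for their level only, since an array signal holds no editing state. Of 12 tested 4 fell, 2 rose and 6 did not pass, with a median of -0.11. The Golgi gene Cog3 fell by 0.94 ± 0.11 (adjusted p = 1.84e-05). The growth factor-binding protein Igfbp7 fell by 0.58 ± 0.06 and had a mean of -0.24 over its probe sets. Blcap fell by 0.37 ± 0.10, but was at -0.18 with quantile scaling and did not pass, nor did it after centring on the tested probe sets (-0.24), without the filter, without knockdown replicate 1 or without control replicate 1. The polyamine regulator Azin1 rose by 0.29 ± 0.06, but was at 0.15 with spike-in scaling and did not pass. The neuronal splicing factor Nova1 rose by 0.65 ± 0.21, a call lost with spike-in scaling, without the filter, without control replicate 2 (0.39) and without knockdown replicate 2 (0.46), and its difference was 0.37 with a pseudocount of 64. Gria2, the glutamate receptor messenger best known as an ADAR2 target, was dim at 18.7 to 33.1 and did not pass.

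**Figure D4:**
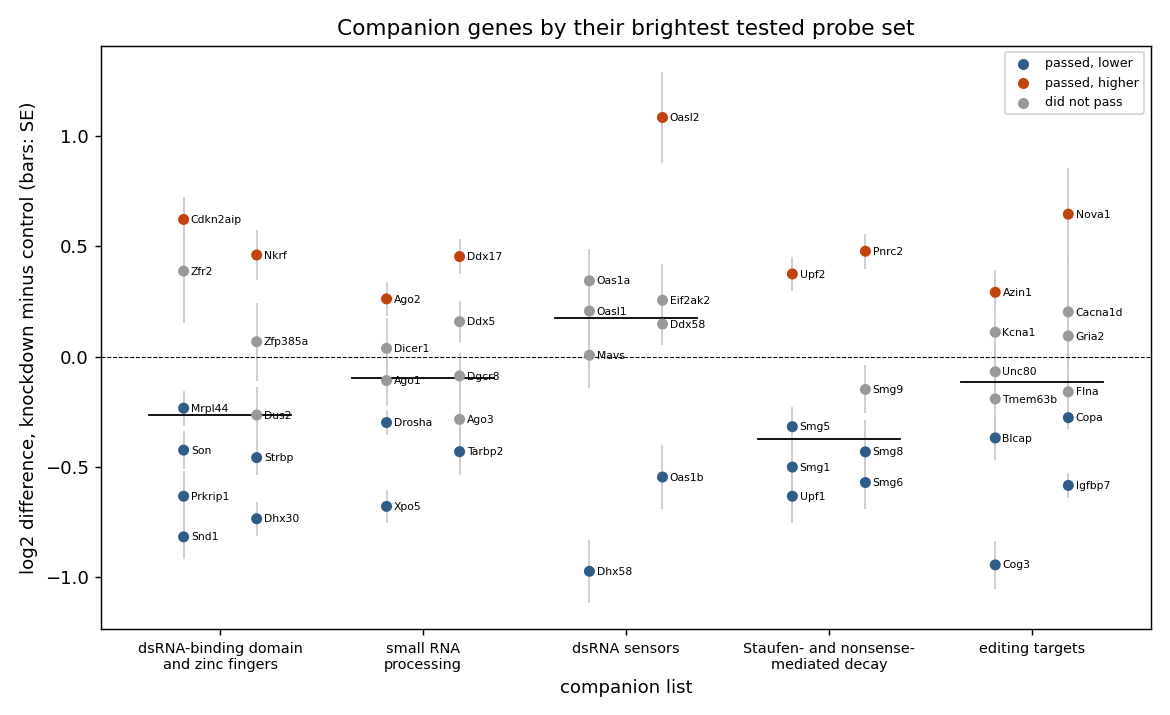
Log2 difference, knockdown minus control, with standard error bars for the 49 tested companion genes by list, each by its brightest tested probe set, blue where it passed as lower, orange where it passed as higher and grey otherwise, with a horizontal line at each list's median. The median is lowest for the decay factors at -0.38 and highest for the sensors at 0.18, and every list holds genes on both sides of 0.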

How the data were processed

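Cytoplasmic RNA of 4 cultures was hybridised to Affymetrix mouse arrays from 200 ng of poly(A)+ RNA, per the labels' protocols. The authors deposited intensities, namely linear MAS5 signals for every probe set, per the submitters' processing notes. Neither the MAS5 version nor its scaling target and filters are known from the sources used here. Of 45037 probe sets other than 64 controls, 34945 had 1 gene symbol, 932 several and 9160 none, and only the first kind was named. Signals were taken as log2(signal + 16) with no further scaling, and the probe sets with a mean at or above the median entered a limma fit (version 3.58.1, R 4.3.3; lmFit, then eBayes with trend). Its two-sided p-values had 13.6 total degrees of freedom and were adjusted by Benjamini-Hochberg over 22525 probe sets, with a threshold of 0.05. An exact permutation test of 2 against 2 arrays cannot go below 0.333, and precision is limited by having 4 arrays. The fit was also run on data simulated with independent noise of its own estimated size. Such data hold no array effects or shared shifts of scale, so the run cannot speak to those. Members and lists were chosen with earlier results of these data known. Named companion genes were, per list, up to 3 called genes with the largest change in each direction whose groups did not overlap. Gapdh had no probe set with 1 symbol outside the controls and was not used. Promoter windows came from RefSeq on GRCm38.p6. Rigi was matched as Ddx58. Alternatives were pseudocounts of 1 and 64, 4 scalings, no filter, the brightest 25%, no trend, a replicate block, a threshold of 0.01, the mean of probe sets, and leaving out each array.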

Additional observations from a re-analysis of the deposited data

How the results depend on the processing

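Of the 8 member calls, all 8 were kept with pseudocounts of 1 and 64, quantile scaling, both centrings, no intensity trend, the replicate block, and without knockdown replicate 2 or control replicate 2, and none turned to the other direction in any alternative. With spike-in scaling 9 of the 20 member probe sets were lower, against 35.6% of all tested probe sets. The number higher was 1 of 27 without the filter, against 2.76% of all probe sets. It was 1 on the brightest 25%, where only 10 member probe sets were measured, against 13.9% of all. Of all tested probe sets, 3768 were lower with quantile scaling and 3778 without the trend. The number higher was 3817 with quantile scaling, 3773 after centring on the tested probe sets, 1042 with spike-in scaling, 1241 without the filter, 1354 without the trend and 1283 at a threshold of 0.01, and 1200 to 1976 when 1 array was left out. Companion genes numbered 12 lower and 5 higher without the trend, and 4 higher with spike-in scaling. Of 23 named companion genes 12 kept their call in every alternative and 11 lost it in at least 1. With the replicate number as a block 6 of the 20 member probe sets were lower and 3 higher, against 27.2% and 10.7% of all tested probe sets. Deviations of same-numbered arrays correlated at 0.007, so no effect shared by them was seen. With so few arrays this cannot show whether same-numbered cultures were handled together, and the labels do not say. With 1 array left out, the lone array of its group was assumed to vary like the others. Signals near the filter limit what could be seen for Adarb1 and the third Adar probe set.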

Other observations

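Probe sets of the same gene often gave different sizes on these arrays. Over 5189 genes with at least 2 tested probe sets, the median gap between the highest and the lowest log2 difference was 0.315, and 97 genes (1.87%) had probe sets that passed in opposite directions. No member was among those 97. The gap was 0.98 for Stau2, and 4.53% of these genes had one as large. It was 0.76 for Zfp346 (10.7%), 0.64 for Adar (16.6%), 0.24 for Dhx9 (62.6%) and 0.03 for Ilf2 (96.0%). The gap of Adar rests on 1439276_at, which was tested only through its higher knockdown arrays and depends on the pseudocount; the other Adar probe sets were at 0.48 and 0.50. The sizes given for Stau2 and Zfp346 thus depend on the probe set more than those of Dhx9. Which transcripts each probe set reads was not analysed here.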
